A study of Bos taurus with 9 samples.

Results

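Plasmin is the broad protease that dissolves fibrin and opens the extracellular matrix, and it is made from plasminogen by a pair of activators. The tissue-type activator is encoded by PLAT and the urokinase-type activator by PLAU, and urokinase is held at the cell surface by the receptor encoded by PLAUR. Serpins, inhibitors that trap a protease in a dead-end complex, restrain both activators, and the endocytic receptor encoded by LRP1 clears the complexes. Thrombospondins are secreted matrix proteins that bind proteases, growth factors and cell surface receptors. In rodents the tissue-type activator is known from the maturing oocyte and its cumulus cells, and in several mammals urokinase is known from the trophoblast.

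The genes described here are 8 named transcripts of this system: PLAT, PLAU, PLAUR, SERPINE2, SERPINF1, THBS1, THBS2 and PI15. They were taken by symbol from the deposited table of 22127 bovine genes, and all 8 were found, under the identifiers ENSBTAG00000001244, ENSBTAG00000005947, ENSBTAG00000008717 (SERPINE2), ENSBTAG00000009705 (SERPINF1), ENSBTAG00000013125 (PLAUR), ENSBTAG00000002006 (THBS1), ENSBTAG00000018810 (THBS2) and ENSBTAG00000019587 (PI15), the first pair being PLAT and PLAU. Of these, 7 passed the filter on low counts and SERPINF1 did not, against 16469 of 22127 genes in all. The set was put together with results of these same libraries already known, and the contrast behind the choice is not stated. Differences from control are therefore treated as used in the choice and given for the members as a description, with no p-value. The number of members that the fit of all genes calls is given for scale, also for fits under other settings or without a library, and supports nothing. The comparison of the low glucose media with each other is tested.

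Polyadenylated transcripts were sequenced from 9 pools of day 8 bovine blastocysts, 9 to 11 embryos to a pool, and 3 pools came from each of 3 media. Cumulus-oocyte complexes, the oocytes with the somatic cells that surround them, had been matured for 24 h in control medium with 5.5 mM glucose, in low glucose medium with 2.75 mM, or in 2.75 mM glucose with 1.8 mM BHB. The labels do not spell out BHB; it is taken here as beta-hydroxybutyrate, a ketone body. All media also held serum, FSH, estradiol and pyruvate, and fertilisation and later culture were shared, so that the question is whether conditions around the oocyte are still visible in the embryo's transcripts. No label ties a replicate to a separate culture or day, so the errors describe the spread between these pools, which may be technical.

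Total estimated counts per library lay between 55611205 and 75178898, so that 1 CPM, the unit of level used throughout (counts scaled to library size), stood for 55 to 74.1 counts. Markers of the labelled tissue were abundant: 9 trophectoderm genes summed to 13300 to 20500 CPM over the libraries and 5 epiblast genes to 1210 to 1500 CPM. The 7 hypoblast genes summed to 5490 to 6230 CPM in control, 7100 to 7570 in low glucose, without overlap, and 5140 to 7190 with BHB. Most of each sum was FN1, at 4743 to 5308 CPM in control, 6055 to 6612 in low glucose and 4227 to 6146 with BHB. Over all tested genes 4.31% were higher without overlap in low glucose. Of the 7, GATA4 fell in both media (log2 fold change -1.45, edgeR adjusted p = 0.00802, and -1.13, adjusted p = 0.0432) and 0 rose past the threshold. Log2 CPM over the tested genes correlated across genes at 0.951 to 0.976 within media and at 0.932 to 0.978 between media, so no medium formed a tight block. Of markers of other cells, 10 of fibroblasts and stroma summed to 527 to 1160 CPM in control, 204 to 389 in low glucose and 213 to 420 with BHB, the highest being control replicate 1. Of these, DCN, LUM, PDGFRB and TAGLN fell in low glucose, and the same genes and COL3A1 fell with BHB (edgeR adjusted p from 0.00222 to 0.0396). The median log2 fold changes of the 10 were -1.8 in low glucose and -1.91 with BHB. The 16 cumulus and granulosa markers summed to 151 to 165 CPM in control, 72.9 to 130 in low glucose and 84.1 to 112 with BHB, with median log2 fold changes of -0.43 and -0.69; of these genes GREM1 fell in low glucose (edgeR adjusted p = 0.0304) and did not pass with BHB (adjusted p = 0.864). CYP11A1 alone held 65.3 to 71.6 CPM of the control sum, 21.5 to 69.7 of the low glucose sum and 37.8 to 59.0 of the sum with BHB. INHA had 107 counts in control and 0 in low glucose (edgeR adjusted p = 0.174, DESeq2 adjusted p = 0.00331). None of those 16 was at 0 in every library, and HSD17B1 and LHCGR stayed under 1 CPM throughout. Endothelial markers summed to 99.1 to 132 CPM and white blood cell markers to 6.05 to 14.9 CPM over all libraries, with CDH5 at 0 in every library and PTPRC and CD3E under 1 CPM. The part of other cells in the results below was not tested, and in pooled embryos fewer cells of a type and less RNA per cell cannot be told apart.

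Control blastocysts held more PLAT, THBS1, THBS2 and PI15 than blastocysts of either low glucose medium, somewhat more SERPINE2 and PLAUR, and no more PLAU. For 6 of the 7 members that passed the filter, every control library lay above every low glucose library, where 8.85% of all tested genes were lower without overlap. The same 6 lay above every BHB library, where that share was 8.56%. By edgeR's adjusted p, 5 of the 7 were lower in low glucose, where 2.02% of all tested genes were, and 5 were lower with BHB, where 1.38% were. In low glucose the 5 became 3 without control replicate 1 or 3 or low glucose replicate 2 or 3, and with BHB they became 3 without control replicate 1 or 3 or BHB replicate 1, and 2 without BHB replicate 3. In low glucose PLAT alone was also lost without control replicate 2, and SERPINE2 alone without any of the BHB replicates. With BHB SERPINE2 alone was also lost without low glucose replicate 2 or BHB replicate 2. SERPINE2 thus passed in 2 of the 9 fits that left out a library in low glucose and in 3 of the 9 with BHB. The counts and shares above are given for scale: the set was chosen on such differences, and both comparisons use the same 3 control libraries. The median log2 fold change of the 7 was -2.30 in low glucose and -2.69 with BHB, while that of all tested genes was 0.02 and 0.01.

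**Figure D1:**
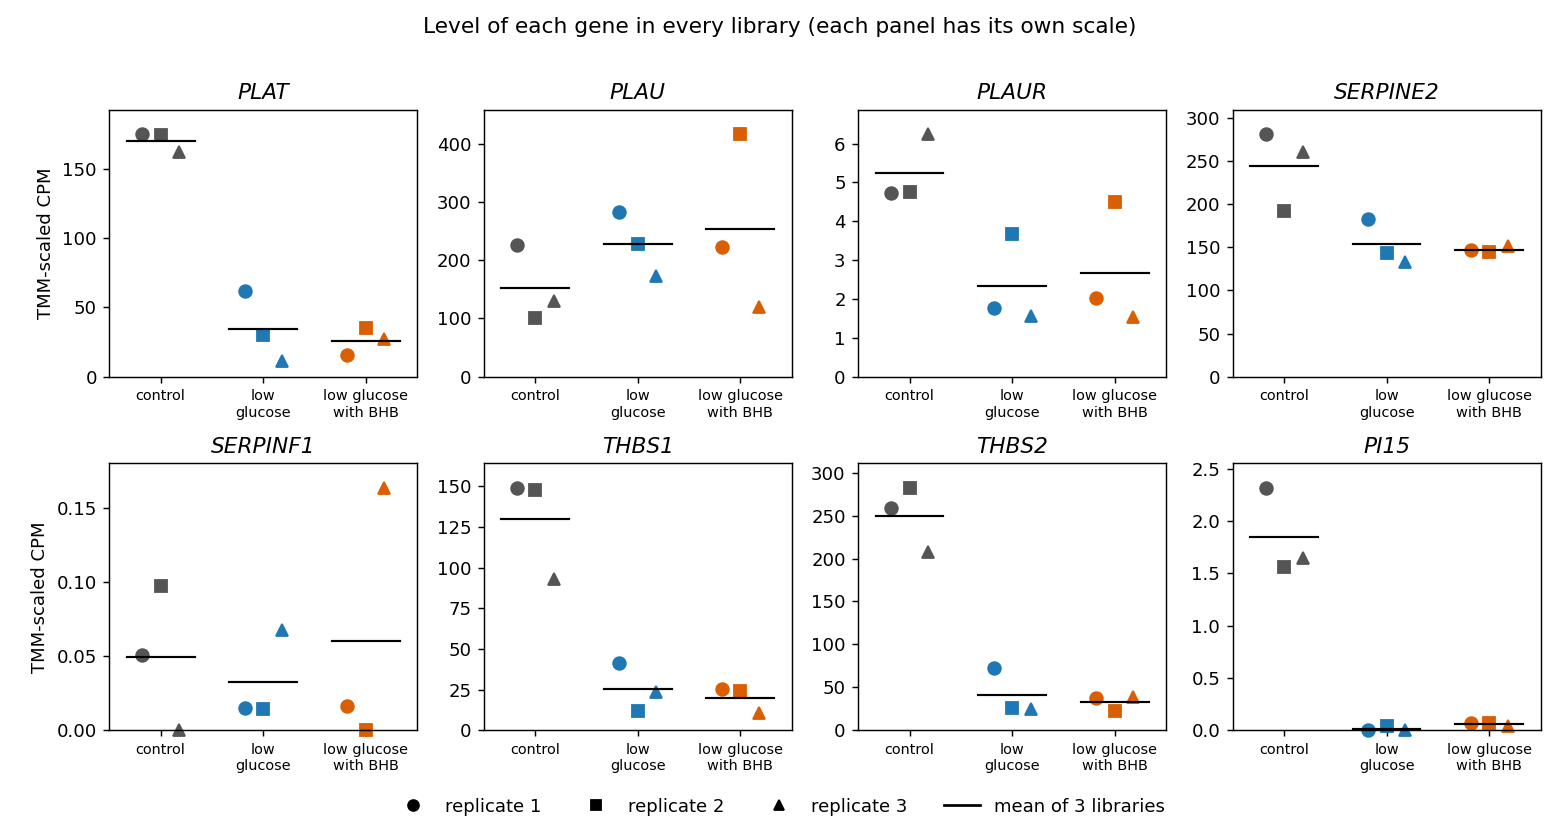
Level of each gene in every library, in TMM-scaled CPM on axes that start at 0, with the mean of the 3 libraries of a medium as a line and the marker shape giving the replicate. PLAT, THBS1, THBS2 and PI15 sit high in all 3 control libraries and low in the other 6, PLAU overlaps between media, and SERPINF1 never exceeds 0.164 CPM.

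Of the activators, PLAT stood at 175, 174.5 and 162 CPM in control replicates 1 to 3. It stood at 62.1, 30.3 and 11.5 CPM in the low glucose libraries and at 15.7, 35.5 and 27.2 CPM with BHB. The control libraries were close together and none came near the other media, whose highest library, low glucose replicate 1, held 62.1 CPM. In control the highest library exceeded the lowest by 1.08-fold, against a median of 1.37-fold over all tested genes, while in low glucose PLAT spread over 5.39-fold, against 1.43-fold. The fitted log2 fold change was -2.30 (SE 0.461) in low glucose and -2.70 (SE 0.469) with BHB. Without low glucose replicate 1 the difference widened to -3.01.

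PLAU did not share this pattern. Control libraries held 225.5, 101.3 and 129.9 CPM, low glucose libraries 283, 227 and 173 CPM, and BHB libraries 223, 416.5 and 119.8 CPM. The media overlapped: control replicate 1 was nearly level with low glucose replicate 2, and BHB held both the highest library of all, replicate 2, and one below control replicate 3. The 3 control libraries averaged 152 ± 65.1 CPM, those of low glucose 228 ± 55.3 CPM and those with BHB 253 ± 151 CPM (mean ± SD). The fitted log2 fold changes against control were 0.58 (SE 0.387) and 0.73 (SE 0.387), and their intervals at 95% ran from -0.26 to 1.42 and from -0.11 to 1.58.

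The activators were also set against each other within each library, where library scaling has no part. The count of PLAU divided by that of PLAT was 1.29, 0.581 and 0.803 in the control libraries. It was 4.57, 7.50 and 15.04 in low glucose and 14.2, 11.8 and 4.40 with BHB. All 6 low glucose libraries, with or without BHB, thus lay above all 3 control libraries. PLAU itself overlapped between media, so this separation restates the lower PLAT outside control, a difference treated as used in the choice. This ratio and the other ratios of members below are therefore a description and add no support. The ratio depends on transcript lengths and is not a ratio of molecules; only its change between libraries can be read. The low glucose media overlapped (difference in mean log2 ratio, BHB minus low glucose, 0.17).

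PLAUR, whose product concentrates urokinase at the cell surface, was a low transcript at 4.72, 4.75 and 6.24 CPM in control. It stood at 1.76, 3.66 and 1.56 CPM in low glucose and 2.02, 4.49 and 1.53 CPM with BHB. Replicate 2 was the highest library in both low glucose media and, with BHB, came just under the lowest control library. The fitted log2 fold changes were -1.17 (SE 0.437) in low glucose and -0.96 (SE 0.434) with BHB, and the second was -1.56 without BHB replicate 2. The count of PLAU per count of PLAUR was 20.8 to 47.8 in control, 62.1 to 161 in low glucose and 78.5 to 110 with BHB, without overlap between control and the others.

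**Figure D2:**
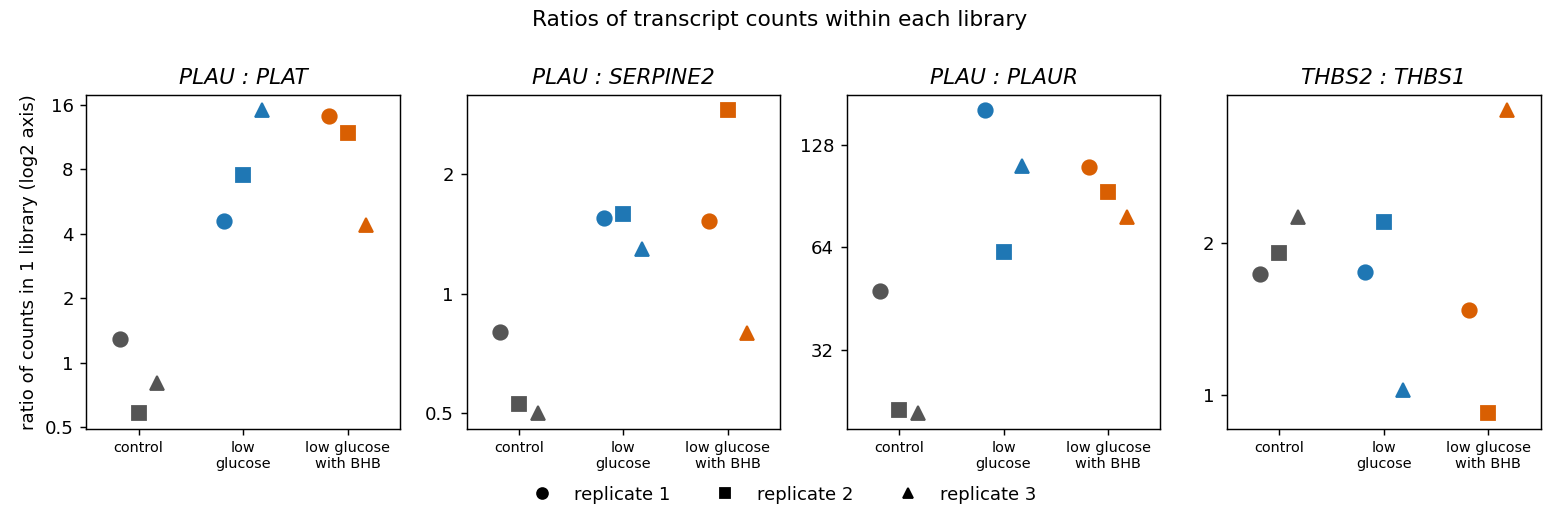
Ratios of transcript counts within each library on log2 axes, with colour for the medium and marker shape for the replicate. PLAU per PLAT is at most 1.29 in control and at least 4.40 in the other 6 libraries, while THBS2 per THBS1 overlaps between media. Differences of members from control are treated as used in the choice, so the ratios are a description.

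SERPINE2 encodes protease nexin-1, a serpin that inhibits thrombin, urokinase and the tissue-type activator. Control libraries held 281, 192 and 260.2 CPM, low glucose libraries 183, 144 and 133 CPM, and BHB libraries 146, 144 and 151 CPM. The lowest control library, replicate 2, was only slightly above the highest low glucose library, replicate 1. BHB libraries spread over 1.05-fold, against a median of 1.42-fold for all tested genes. The fitted log2 fold changes were small, -0.67 (SE 0.156) in low glucose and -0.73 (SE 0.156) with BHB. With single libraries removed in turn they ran from -0.82 to -0.56 in low glucose and from -0.88 to -0.62 with BHB. PLAU per SERPINE2 count was 0.499 to 0.803 in control, 1.30 to 1.58 in low glucose and 0.794 to 2.89 with BHB, where replicate 3 overlapped control.

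SERPINF1, which encodes pigment epithelium-derived factor, a serpin without known protease inhibition, was barely detected. It had 3, 7 and 0 counts in control, 1, 1 and 4 in low glucose, and 1, 0 and 9 with BHB. Over the libraries of a medium the control sum of 10 counts was 1.64 times that of low glucose after scaling, with an exact 95% counting interval of 0.54 to 5.49, so no difference was detectable at this depth. Intervals on counts cover counting error only.

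PI15, a secreted protein of the CAP family described as a weak trypsin inhibitor, was low in control and nearly missing elsewhere. It had 138, 112 and 111 counts in the control libraries, or 2.32, 1.56 and 1.65 CPM. It had 0, 3 and 0 counts in low glucose and 4, 5 and 2 with BHB. All low glucose counts came from replicate 2, whereas every BHB library held a few. Control exceeded low glucose with BHB 31.4-fold in scaled counts (exact 95% counting interval 17.3 to 63.5), and low glucose, with its 3 counts, 118-fold (40.2 to 577). Without low glucose replicate 2 that medium held 0 counts, and the fitted log2 value, which depends on the prior count, moved from -6.77 to -9.88.

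Both thrombospondin genes had far more transcript in control than elsewhere. THBS1, whose product can activate latent TGF-beta, stood at 149, 148 and 92.9 CPM in control. It stood at 41.3, 11.5 and 23.8 CPM in low glucose and at 25.6, 24.0 and 10.7 CPM with BHB. Even the lowest control library, replicate 3, was well above the highest of the others, low glucose replicate 1. The fitted log2 fold change was -2.35 (SE 0.420) in low glucose and -2.69 (SE 0.426) with BHB.

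THBS2, the closest relative of THBS1, stood at 259, 283 and 208 CPM in control. It stood at 72.4, 25.3 and 24.3 CPM in low glucose and at 37.6, 22.1 and 39.0 CPM with BHB. Low glucose replicate 1 again held the most outside control. The fitted log2 fold change was -2.62 (SE 0.382) in low glucose, -3.31 without replicate 1 of that medium, and -2.93 (SE 0.387) with BHB. THBS2 had 1.74 to 2.24 counts per THBS1 count in control, 1.02 to 2.20 in low glucose and 0.922 to 3.64 with BHB, so the ratio overlapped between media and was tightest in control.

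The order of levels was the same for PLAT, SERPINE2, THBS1 and THBS2: control first, low glucose next and BHB last by their means. For PLAUR and PI15 low glucose was last. For PLAU the order was BHB, low glucose, control. For each of the 7 the libraries of low glucose and BHB overlapped, and for PLAU those of all media did. For PI15 the overlap rested on low glucose replicate 2, at 0.0422 CPM, which was above the lowest BHB library, at 0.0364 CPM.

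**Figure D3:**
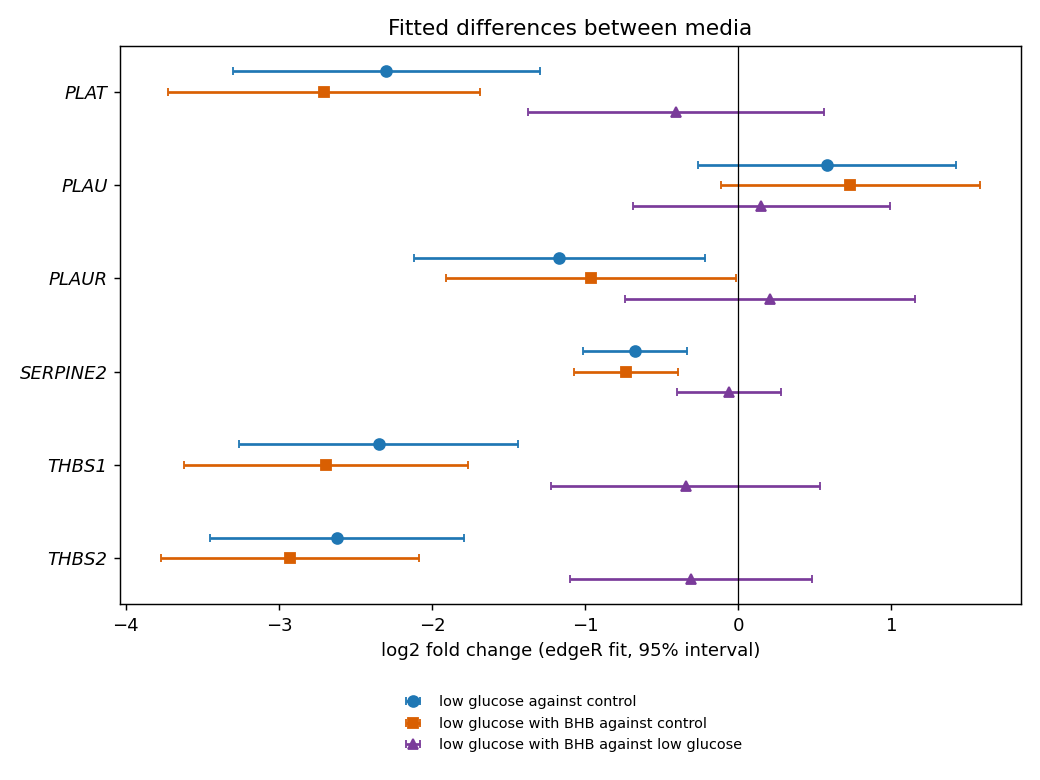
Fitted log2 fold changes with their 95% intervals for 6 members in the 3 comparisons; PI15 is left out because its fitted value depends on the prior count, and SERPINF1 because it was not tested. The comparisons with control share the control libraries, and every interval of BHB against low glucose spans 0.

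Low glucose with BHB against low glucose was taken as not used in the choice of members, although its results were known as well. In edgeR's quasi-likelihood test 0 of 7 members differed at an adjusted p under 0.05, where 0% of all 16469 tested genes did, and 0 of 7 had an unadjusted p under 0.05, against 1.64% of all genes. DESeq2 also called 0 of 7 members, against 0.0121% of all genes, and 0 at an unadjusted p under 0.05, against 2%. No member separated the libraries of the 2 media without overlap, against 5.51% of all genes. The edgeR adjusted p was 0.9999 for each member. Log2 fold changes with 95% intervals were -0.41 (-1.37 to 0.56) for PLAT, 0.15 (-0.69 to 0.99) for PLAU, 0.21 (-0.74 to 1.15) for PLAUR and -0.06 (-0.40 to 0.28) for SERPINE2. They were -0.34 (-1.22 to 0.53) for THBS1 and -0.31 (-1.10 to 0.48) for THBS2. These intervals come from the fit of medium means, which leaves out any pairing by replicate number. In that fit the interval was narrow for SERPINE2 and wide for the others, so that sizeable differences in PLAT, PLAU, PLAUR and the thrombospondins would not have been detected. With the replicate number as a block 0 members passed as well. PI15 had 11 counts with BHB and 3 in low glucose, a scaled ratio of 3.77 with an exact 95% counting interval of 0.996 to 21.1.

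The order of replicates was shared among members in part. In control, replicate 1 was the highest library for 5 of the 7, PLAT, PLAU, SERPINE2, THBS1 and PI15. In low glucose, replicate 1 was the highest for 5 of the 7 and replicate 3 the lowest for 5, with the order 1, 2, 3 in PLAT, PLAU, SERPINE2 and THBS2. With BHB no replicate led in more than 4: replicate 2 was the highest for PLAT, PLAU, PLAUR and PI15, and replicate 3 for SERPINE2 and THBS2. Low glucose replicate 1 also held the highest sum of stroma markers of its medium, 389 CPM against 204 and 283, and of cumulus and granulosa markers, 130 CPM against 111 and 72.9. Without that library the log2 fold change of BHB against low glucose turned from below 0 to 0.31 for PLAT, 0.08 for SERPINE2, 0.18 for THBS1 and 0.40 for THBS2, none past the threshold. Control replicate 1, the highest library for the 5 members named above and the lowest for PLAUR, held a stroma sum of 1160 CPM against 542 and 527. BHB replicate 1, the highest library for THBS1 alone and the lowest for PLAT, held 420 CPM against 269 and 213. The cumulus and granulosa sum was highest in replicate 2 in control and with BHB. The relation of the members to these sums was not tested.

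Profiles over the 9 libraries were compared by the root mean square difference of log2 CPM after each gene was centred on its own mean. Among the members, THBS1 and THBS2 were the closest pair (0.565), next PLAT and THBS2 (0.573) and PLAUR and SERPINE2 (0.596), while PLAU and PI15 were the farthest (2.72) and PLAU and PLAT differed by 1.70. Of 14455 other tested genes with a symbol, the nearest to PLAT was STRA6, a retinol transporter gene, at 0.322. The nearest to THBS1 was VCAN, the gene of the matrix proteoglycan versican, at 0.401, and to SERPINE2 it was MICAL2, an actin oxidation enzyme gene, at 0.117. CAVIN3, a caveola coat gene, was nearest to PLAUR at 0.241 and CYSRT1 to PLAU at 0.259. THBS2 lay nearest to BEND6 at 0.354, a gene of only 0.266 CPM in control, and PI15 lay nearest to the antiviral gene IFIT1, at 0.855. The fitted log2 fold changes of these pairs differed. BEND6 had -5.25 in low glucose and -5.21 with BHB, against -2.62 and -2.93 for THBS2. IFIT1 had -4.15 and -3.02, against -6.77 and -4.97 for PI15. The profiles used a prior count of 2, which compresses low levels, so a near profile need not mean an equal fold change. Distances are not scaled to a member's own spread, so they do not rank the members by closeness of match. The root mean square of the centred profile was 2.41 for PI15, 0.612 for PLAU and 0.372 for SERPINE2. The mean profile of the 7 members was nearest to FAM114A1 (0.256), B4GALT4 (0.267), GPRC5A (0.270), CD276 (0.283) and PAM (0.289). How much of these distances comes from the step between control and the rest was not computed, and the media overlapped for PLAU. The distances are a description.

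Other genes of the system were taken from a list of 67 companions by function, of which 66 were in the table and 57 were tested. In low glucose 4 of the 57 fell, or 7.02% against 2.02% of all tested genes, and with BHB 3 fell, or 5.26% against 1.38%. By edgeR and by DESeq2 0 rose in either medium. At an unadjusted p under 0.05 by edgeR 0 in low glucose and 1 with BHB were higher, against 0.996% and 1.82% of all tested genes. In either direction, 7.33% of all tested genes had such a p in low glucose and 7.32% with BHB. Their median log2 fold changes, -0.02 in low glucose and 0.01 with BHB, lay close to the 0.02 and 0.01 of all tested genes. The genes that fell were LRP1, SERPINH1 and ITGAV in both media and SERPINB2 in low glucose.

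No plasminogen receptor gene passed the test. PLG, the plasminogen gene itself, had 1 count in all 9 libraries together, in low glucose replicate 2, so the transcript of the activators' substrate was at the limit of detection in these pools. ANXA2 and S100A10, whose products form a plasminogen receptor at the cell surface, stood at 1506 and 219 CPM in control, with log2 fold changes of 0.01 (SE 0.117) and -0.03 (SE 0.163) in low glucose and 0.05 (SE 0.117) and -0.11 (SE 0.163) with BHB. PLGRKT, a membrane receptor of plasminogen, had log2 fold changes of 0.00 (SE 0.204) and 0.22 (SE 0.204). With ENO1 as the other tested gene of this group, 0 of 4 passed in edgeR or DESeq2 in either medium, and 0 had an unadjusted p under 0.05.

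Of the 3 tested inhibitors of the activators in the list, 1 fell in low glucose by edgeR and 0 with BHB, where 1 had an unadjusted p under 0.05 and DESeq2 called 0. SERPINB2, the gene of plasminogen activator inhibitor 2, stood at 1.44, 3.97 and 4.28 CPM in the control libraries. Low glucose libraries held 0.412, 0.4504 and 0.237 CPM, and BHB libraries 0.492, 2.62 and 1.29 CPM. It fell in low glucose (log2 fold change -3.13, SE 0.636, edgeR adjusted p = 0.0231) and did not pass with BHB (-1.14, SE 0.583, edgeR adjusted p = 0.776; -1.86 without BHB replicate 2). The call was lost without control replicate 2 (-2.96) or 3 (-2.86) or low glucose replicate 1 (-3.20), 2 (-3.30) or 3 (-2.90). Every BHB library was above every low glucose library, but the difference between them did not pass (1.99, SE 0.617, edgeR adjusted p = 0.9999, unadjusted p = 0.00715), and was 1.27 without BHB replicate 2. In that comparison 3 of the 57 companions were higher without overlap, against 2.96% of all tested genes. By edgeR 1 of the 57 companions had an unadjusted p under 0.05 there, against 1.64% of all tested genes. By DESeq2 2 did, against 2%, while 0 passed after adjustment by edgeR or DESeq2.

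**Figure D4:**
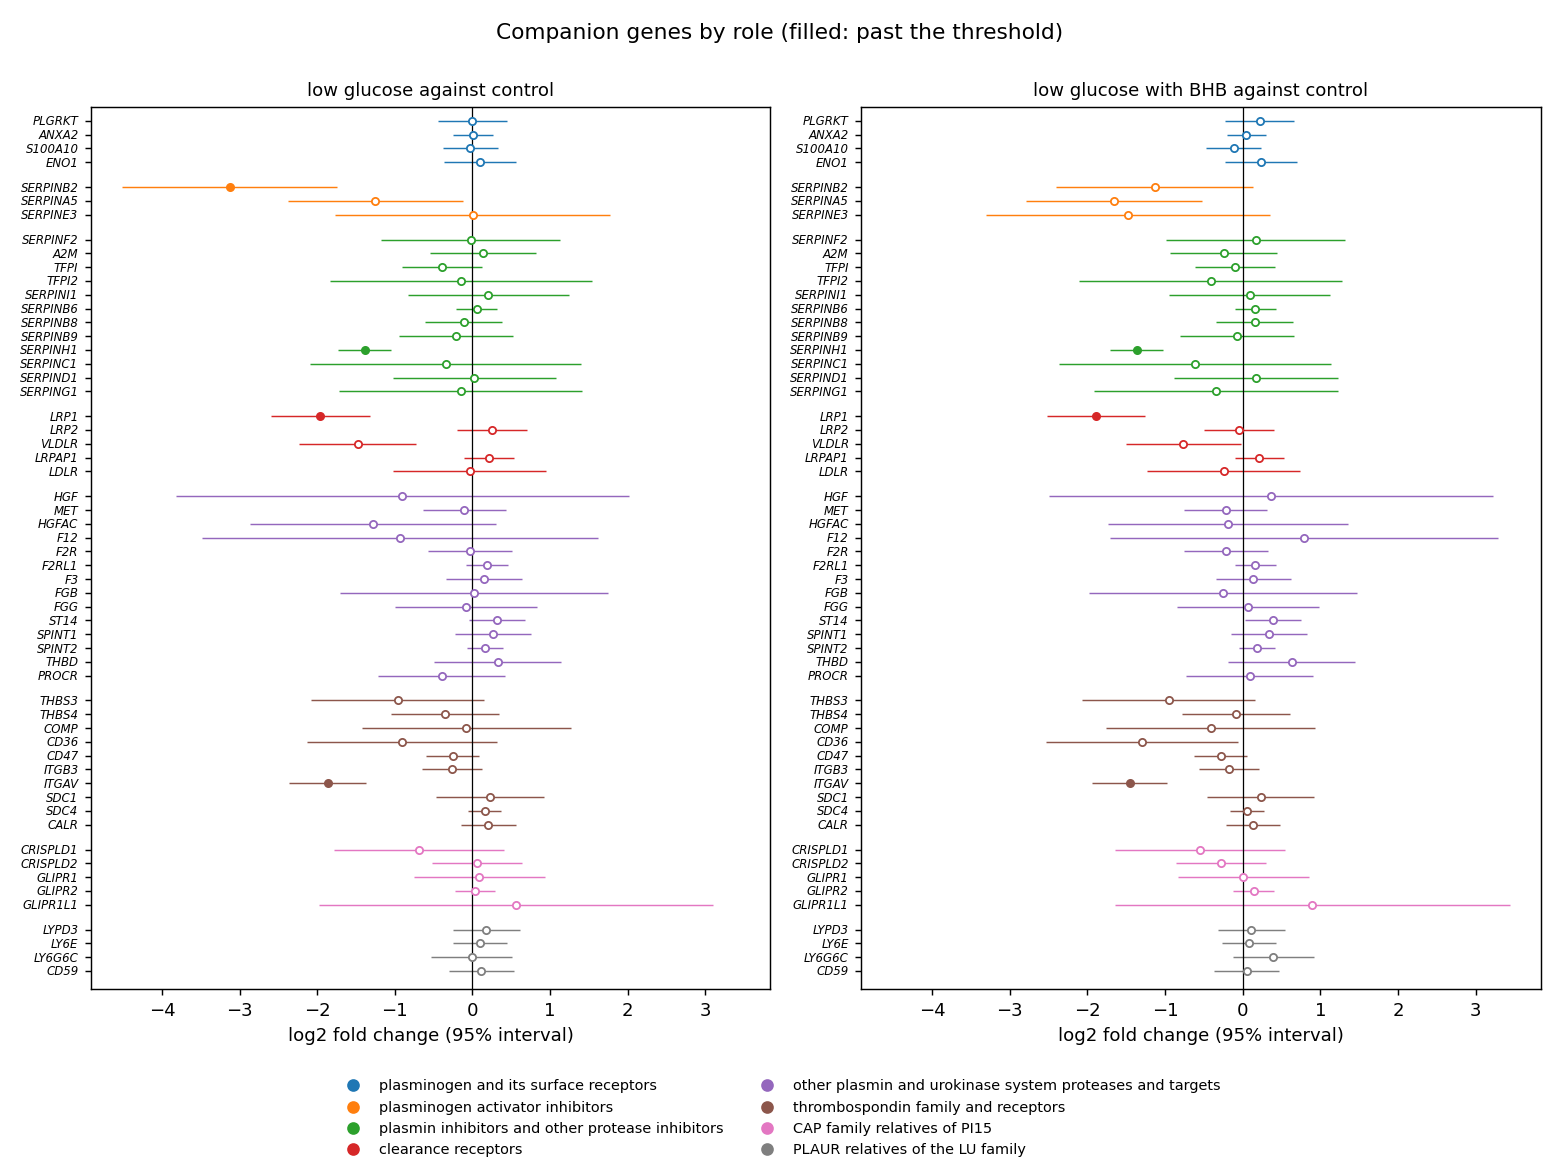
Fitted log2 fold changes against control, with 95% intervals, of the 57 tested companion genes in low glucose (left) and low glucose with BHB (right), grouped and coloured by role, filled where the edgeR adjusted p is under 0.05. LRP1, SERPINH1 and ITGAV are filled in both panels and SERPINB2 on the left.

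Of 12 tested plasmin inhibitors and other protease inhibitors, 1 fell in each medium. It was SERPINH1, which encodes a serpin that does not inhibit proteases but chaperones collagen: it stood at 107 CPM in control, 41.0 in low glucose (log2 fold change -1.38, SE 0.157, edgeR adjusted p = 0.0011) and 41.6 with BHB (-1.36, SE 0.157, edgeR adjusted p = 0.00325). SERPINF2, the gene of the main plasmin inhibitor alpha-2-antiplasmin, varied from 1.96 to 6.72 CPM over the libraries and had log2 fold changes of -0.02 (SE 0.529) in low glucose and 0.16 (SE 0.528) with BHB.

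Of 5 clearance receptors, 1 fell in each medium by edgeR, while DESeq2 called 2 in low glucose and 1 with BHB. Over all tested genes edgeR called 2.02% lower in low glucose and 1.38% with BHB, and DESeq2 3.33% and 2.5%. LRP1, the receptor that takes up activator-inhibitor complexes and thrombospondins, stood at 196, 90.3 and 106 CPM in control. It stood at 45.3, 27.5 and 28.2 CPM in low glucose and 43.6, 28.4 and 33.8 CPM with BHB. Replicate 1 was the highest library in every medium, as it was for the stroma marker sum, and a relation between LRP1 and that sum was not tested. The log2 fold change was -1.96 (SE 0.292, edgeR adjusted p = 0.00379) in low glucose and -1.89 (SE 0.291, edgeR adjusted p = 0.00711) with BHB, and -1.55 and -1.48 at the least in fits that left out a library. VLDLR, a lipoprotein receptor gene of the same family, was named after its values were seen: it stood at 7.49 CPM in control and 2.69 in low glucose, without overlap (log2 fold change -1.48, SE 0.347, edgeR adjusted p = 0.0529, DESeq2 adjusted p = 0.00196). With BHB VLDLR stood at 4.40 CPM, also without overlap (log2 fold change -0.76, SE 0.340, edgeR adjusted p = 0.652, DESeq2 adjusted p = 0.496). Of all tested genes 8.85% were lower without overlap in low glucose and 8.56% with BHB.

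Of 10 tested genes of the thrombospondin family and its receptors, ITGAV alone fell. It encodes integrin alpha-V, which binds vitronectin and thrombospondins, and stood at 120 CPM in control, 33.0 in low glucose (log2 fold change -1.87, SE 0.226, edgeR adjusted p = 0.00153) and 43.8 with BHB (-1.46, SE 0.223, edgeR adjusted p = 0.00697). THBS3, a thrombospondin of the pentameric branch, averaged 2.10 CPM in control and had log2 fold changes of -0.96 in both media (SE 0.511 each), short of the threshold. CD47, a receptor of THBS1, did not pass either, with log2 fold changes of -0.25 (SE 0.156) and -0.29 (SE 0.156). For CD47 and THBS3 every library of the low glucose media lay below every control library. Among all 57 tested companions 8 were lower without overlap in low glucose and 9 with BHB, where 8.85% and 8.56% of all tested genes were. Another 5 were higher without overlap in low glucose and 0 with BHB, where 4.31% and 4.77% of all tested genes were. Of the 5 tested CAP family relatives of PI15 and the 4 tested LU family relatives of PLAUR, 0 passed against control in edgeR or DESeq2, and 0 had an unadjusted p under 0.05.

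The other proteases and targets of the plasmin and urokinase system gave no call. ST14, the gene of matriptase, stood at 134 CPM in control, 167 in low glucose (log2 fold change 0.31, SE 0.164) and 176 with BHB (0.39, SE 0.164). SPINT1, which encodes its inhibitor, stood at 126, 152 and 159 CPM, with log2 fold changes of 0.27 (SE 0.225) and 0.34 (SE 0.225). Of the 14 tested genes of this group, which also holds the fibrinogen genes FGB and FGG, F2R, MET and tissue factor (F3), 0 passed against control in edgeR or DESeq2, and at an unadjusted p under 0.05 edgeR gave 0 in low glucose and 1, ST14, with BHB. Over all tested genes the shares at that unadjusted p were 7.33% and 7.32%.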

How the data were processed

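Polyadenylated RNA of 9 pools of bovine blastocysts was sequenced, per the labels' protocols, from NEBNext Ultra II libraries. The authors deposited 1 table of estimated counts per gene; 19.2% of its values are not whole (tolerance 1e-06). The submitters' processing notes list kallisto, fastp, DESeq2 and the build bosTau9, without versions; the annotation is not given in the sources used. Similar gene copies can share reads under such estimation. Samples were grouped by their titles and columns matched by description. Coordinates and sequences were not used here, and without transcript lengths levels are not compared between genes.

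Counts were rounded and fitted in edgeR 4.0.16 (R 4.3.3, limma 3.58.1): filterByExpr (minimum count 10, minimum total 15) left 16469 of 22127 genes, scaling was by TMM, and 1 quasi-likelihood fit of 9 libraries with 3 medium means gave two-sided p-values, Benjamini-Hochberg adjusted over all tested genes, with a threshold of 0.05. CPM are TMM-scaled, log2 CPM for profiles used a prior count of 2, and figures used matplotlib 3.10.9. No replicate pair agreed within sampling noise (chi-square per degree of freedom at least 38.9). The steps were tested on simulated data. Members, lists and tests were chosen with earlier results of these data known. Named genes are the 8 members, 11 companions whatever their values, every companion past the threshold, and the nearest profiles (1 per tested member, 5 for their mean); the cell markers named came from fixed lists, and ENO1, VLDLR, FGB, FGG, F2R, MET and F3 were added after their values were seen. 1 further companion gene is not reported here. Alternatives were RLE scaling, no filter, a mean count of at least 50, DESeq2 1.42.0, a replicate block, the 6 libraries compared, and leaving out each library.

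Whether equal replicate numbers mark paired samples was checked from correlations of deviations from each medium's mean. Between the low glucose media every same-numbered pair was over 0.1 (0.115, 0.243 and 0.102) and all 6 samples correlated best with their own number, so those samples are taken as paired, from the data and not the labels; control pairs ranged from 0.0417 to 0.144. The fold changes, intervals and p-values in the Results come from the fit without this pairing, and the replicate block is an alternative.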

Additional observations from a re-analysis of the deposited data

How the results depend on the processing

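For the 7 tested members, leaving out single libraries changed more than other settings did. Of 122 values under other scalings, filters, tools, the block or the 6 libraries compared, 120 kept direction and side of the threshold. The other 2, both of SERPINE2 in low glucose, lost the threshold. Of 189 values that left out a library, 158 kept both, 23 lost the threshold and 8 changed direction, and the cause was not tested. These totals pool all 3 comparisons. PLAU and PLAUR against control, and every member between the low glucose media, had no call to lose. In low glucose the call was kept in 5 of 9 such fits for PLAT, 2 for SERPINE2, 8 for THBS1 and 9 each for THBS2 and PI15. With BHB it was kept in 7, 3, 9, 9 and 6, in the same order. The number of members past the threshold ran from 3 to 5 in low glucose and from 2 to 5 with BHB, over 196 to 391 and 91 to 257 genes in all. DESeq2 called 557 genes in low glucose, 420 genes with BHB, and 2 for BHB against low glucose. With a mean count of at least 50, PI15 was not tested. With the replicate block, 5 members passed in each comparison with control, and 405 and 278 genes in all, while 0 did between the low glucose media, so the block changed no call there. Companions past the threshold with the block were 5 in low glucose and 4 with BHB; 4 and 3 of 6 samples correlated best with their own number.

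Values near 0 changed sign. In low glucose PLGRKT turned to 0.00543 with RLE scaling, 0.000206 without a filter, 0.00532 with DESeq2 and 0.0121 with the replicate block, ANXA2 to -0.000341 with a mean count of at least 50, and SERPINF2 to 0.0216 with the replicate block. Leaving out a library gave -0.10 to 0.11 for PLGRKT, -0.065 to 0.0795 for ANXA2, -0.15 to 0.0903 for S100A10 and -0.70 to 0.54 for SERPINF2 in low glucose. With BHB it gave -0.0531 to 0.10 for ANXA2, -0.23 to 0.0183 for S100A10, -0.29 to 0.73 for SERPINF2 and -0.051 to 0.51 for SPINT1. For BHB against low glucose it gave -0.82 to 0.31 for PLAT, -0.41 to 0.49 for PLAU, -0.39 to 0.70 for PLAUR, -0.15 to 0.0819 for SERPINE2, -0.69 to 0.18 for THBS1 and -0.57 to 0.40 for THBS2. Companions there ran from -0.0624 to 0.13 for ANXA2, -0.20 to 0.0501 for S100A10, -0.27 to 0.87 for SERPINF2, -0.11 to 0.34 for LRP1, -0.14 to 0.0454 for CD47, -0.32 to 0.24 for SPINT1, -0.0804 to 0.24 for ST14, -0.48 to 0.46 for THBS3 and -0.12 to 0.19 for SERPINH1. Depth limits SERPINF1 and the low glucose values of PI15.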
